A study of Mus musculus with 16 samples.

Results

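The data compare 5-hydroxymethylcytosine (5hmC) in regulatory T (Treg) cells made in culture with TGFβ, called TGFβ iTreg here, and Treg cells taken directly from mice. 5hmC was mapped by CMS-IP, in which bisulfite turns 5hmC into cytosine-5-methylenesulfonate and an antiserum against that adduct pulls down the DNA that carries it. The comparison was defined by the labels and not by measured values. It uses the 2 TGFβ iTreg and the 2 Treg pull-down libraries, which are 4 of the 8 pull-downs and of the 16 libraries of the series, over all 177720 regions of the deposited count table. The source of every group was lymphoid tissue (spleen and lymph nodes) of 5 to 6 week old C57BL/6 mice with a Foxp3-eGFP reporter. TGFβ iTreg were differentiated from naive CD4+ T cells in the presence of TGFβ, and the labels name no sort of these cells after the culture. Treg were CD4+ eGFP+ cells sorted from the animals, so all of them came through a Foxp3 reporter gate. The other pull-downs, iTreg made with TGFβ, retinoic acid and vitamin C (RA/VitC iTreg) and freshly sorted naive CD4+ cells (eGFP-, CD25- and CD44 low, among other markers), are given only as levels beside those of this pair. No group was cultured without TGFβ, so TGFβ, culture, activation and the time in culture cannot be told apart in this comparison. The labels also do not say which DNA extraction kit was used for which library, so kit and group may go together. The labels do not say whether the replicates came from separate mice or cultures, and the p-values therefore measure the spread between libraries, which may be technical. In cell populations of this kind, fewer cells with 5hmC at a site and less 5hmC per cell cannot be told apart.

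5hmC is made from 5-methylcytosine by the TET dioxygenases and is an intermediate on the way to unmethylated cytosine. A site that has been fully demethylated can therefore carry little of it, as can a site that was never oxidised. Foxp3 is the transcription factor that defines Treg cells, and lasting Foxp3 expression goes with demethylation of its conserved intronic enhancer CNS2 in Treg of the thymus, while iTreg are known to be less stable. 5hmC is not a measure of RNA, and the values below are not expression levels.

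Each region was given as a count of sequenced reads per library. Levels are CPM, which put each count relative to all reads in regions of its library, scaled by TMM, a method that aligns the bulk of the regions between libraries. Differences are log2 of TGFβ iTreg over Treg from edgeR's quasi-likelihood test across the whole table, with an adjusted p under 0.05 as the threshold for calling a region or gene higher or lower. The TGFβ iTreg pull-downs held 1648804 and 2114056 reads in regions, against 7664194 and 8347328 in the Treg pull-downs. A floor of 3 reads corresponded to 1.72 and 1.45 CPM in TGFβ iTreg and to 0.369 and 0.342 CPM in Treg, so low levels were measured less precisely in TGFβ iTreg. The pull-downs held 1.49 and 1.72 times the reads of their own inputs in TGFβ iTreg and 4.90 and 6.33 times in Treg, and the 10% of regions with most reads held 52.7 to 54.6% of reads in TGFβ iTreg and 54.2 to 54.8% in Treg. Read totals and pull-down to input ratios moved with the groups, and the part of the ratios in the results was not tested. CPM values are relative: the spiked amplicons named in the labels were not used here, and a change in total 5hmC would not be seen.

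Of 135412 regions with enough reads to be tested, 12968 were higher in TGFβ iTreg (9.58% of those tested) and 7878 were lower (5.82%). The higher regions had a median log2 difference of 1.55, which is 2.93-fold, and 1550 of them differed by over 8-fold. The lower regions had a median of -1.05, which is 2.07-fold, and 332 of them differed by over 8-fold. Lower regions were wider, with a median of 2738.5 bp against 1491.5 bp for the higher ones. These counts, sizes and widths include the 10% of regions with the lowest levels, where 10.4% were higher and 0.377% lower. Such regions can have entered the test through high TGFβ iTreg values, so the directions are not on an equal footing. Summed over the regions that the table assigns to each symbol, 3102 of 14951 genes were higher (20.7%) and 2250 were lower (15.0%), and the median over all genes was -0.02. In the inputs, run through the same test, 1 of 44917 regions differed (0.00223%; 2425 or 5.40% at an unadjusted p under 0.05), as did 9 of 12824 genes (0.0702%; 931 or 7.26% unadjusted). Without TGFβ iTreg replicate 2, 6902 regions were higher and 3878 lower, and without TGFβ iTreg replicate 1, 3600 were lower. With all pull-downs thinned to equal depth, 7633 regions were higher and 4484 lower. Of region calls, 62.2% were higher under TMM, 55.6% with library size alone and 78.3% with DESeq2, which differs in both scaling and test.

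**Figure D1:**
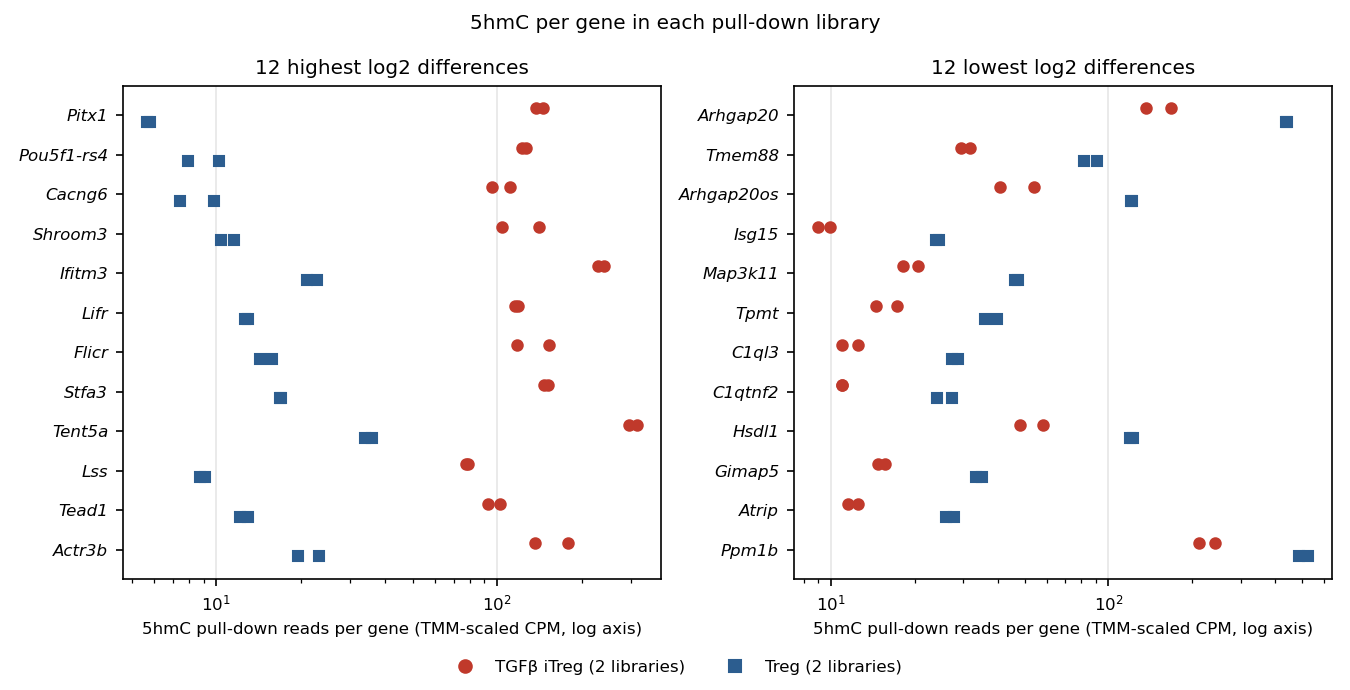
5hmC per gene in TMM-scaled CPM on a log axis, for the 12 genes with the highest (left) and the 12 with the lowest (right) log2 difference among called genes that averaged 100 reads or more, 1 point per pull-down library, with TGFβ iTreg (circles) above Treg (squares). Only genes whose groups did not overlap could be picked, and predicted genes were left out, so the lack of overlap is not a result. The gap is widest at Pitx1, with 138 and 146 CPM in TGFβ iTreg and 5.79 and 5.67 CPM in Treg.

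Foxp3 lies on chromosome X, and the table holds 3 regions along it whose 5hmC moved in opposite directions. The promoter sequences are shown because the region with the lowest p of those named here lies over the start of Foxp3, and regions over the starts of Il2ra, Ctla4 and Isg15 also changed. Each run is the 250 bases before an annotated start, from RefSeq on GRCm38.p6, in the direction of the gene, with CpG dinucleotides, the usual sites of methylation and 5hmC, in capitals. The region coordinates in this text are those of the count table, which uses mm9, and they cannot be read against the GRCm38.p6 positions.
Foxp3 (chrX:7579426-7579675, + strand): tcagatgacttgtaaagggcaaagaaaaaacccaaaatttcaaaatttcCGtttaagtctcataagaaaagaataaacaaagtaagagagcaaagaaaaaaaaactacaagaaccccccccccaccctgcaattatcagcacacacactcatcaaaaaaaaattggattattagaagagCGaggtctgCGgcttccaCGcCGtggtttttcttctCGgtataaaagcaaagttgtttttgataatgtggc
Foxp3 (chrX:7580233-7580482, + strand): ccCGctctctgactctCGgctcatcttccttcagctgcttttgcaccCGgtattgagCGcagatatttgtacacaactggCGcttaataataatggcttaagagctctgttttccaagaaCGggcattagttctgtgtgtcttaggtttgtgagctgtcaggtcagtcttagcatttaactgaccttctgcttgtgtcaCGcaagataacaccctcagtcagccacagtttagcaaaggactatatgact
Il2ra (chr2:11642542-11642791, + strand): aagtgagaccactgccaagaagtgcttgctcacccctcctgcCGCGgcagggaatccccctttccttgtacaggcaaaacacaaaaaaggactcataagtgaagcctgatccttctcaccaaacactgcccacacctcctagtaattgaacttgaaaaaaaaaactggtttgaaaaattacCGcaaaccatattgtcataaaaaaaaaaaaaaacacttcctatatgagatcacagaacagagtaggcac
Ctla4 (chr1:60908775-60909024, + strand): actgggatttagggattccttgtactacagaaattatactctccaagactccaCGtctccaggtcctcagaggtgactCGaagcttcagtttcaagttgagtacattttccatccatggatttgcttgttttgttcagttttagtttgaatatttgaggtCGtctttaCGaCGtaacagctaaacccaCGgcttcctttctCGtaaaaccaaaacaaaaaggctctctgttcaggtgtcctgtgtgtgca
Isg15 (chr4:156200819-156201068, - strand): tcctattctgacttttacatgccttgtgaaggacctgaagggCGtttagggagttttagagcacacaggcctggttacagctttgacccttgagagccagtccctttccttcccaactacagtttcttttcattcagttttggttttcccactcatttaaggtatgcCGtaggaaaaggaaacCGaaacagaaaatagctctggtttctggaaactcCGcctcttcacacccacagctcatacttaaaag
The CG count, which is the same on both strands, was 6 and 7 in the Foxp3 windows, 3 in Il2ra, 7 in Ctla4 and 4 in Isg15. Of 32851 such windows in the RefSeq table, 50.4% held at least as many as the first Foxp3 window, 46.3% as the second and as Ctla4, 70.97% as Il2ra and 62.2% as Isg15, and the median window held 6. All 5 windows therefore held numbers of CpG near or below the middle of all promoters. The CG pairs are a description of the letters and do not say which of them carried 5hmC, since each region is far wider than these windows.

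The 5′ region of Foxp3 carried far more 5hmC in TGFβ iTreg, and the 3′ part of the gene carried less. The region at X:7156699-7163183 overlaps the promoter, 5′ UTR, exon and intron, and the table assigns it to Flicr, the long noncoding RNA gene beside Foxp3. It had 92.98 and 126 CPM in TGFβ iTreg and 5.05 and 7.06 CPM in Treg (log2 difference 4.17, SE 0.15, adjusted p = 3.6e-164). Both TGFβ iTreg libraries held more than 10 times the level of either Treg library, while RA/VitC iTreg averaged 35.8 CPM and naive cells 11.7 CPM. Before pull-down the same region had 12.6 and 12.2 CPM in TGFβ iTreg and 15.4 and 13.7 CPM in Treg, so the inputs of the groups lay close together. Further upstream, the Flicr region at X:7152321-7155923 had 12.6 and 15.9 CPM in TGFβ iTreg and 8.005 and 7.52 CPM in Treg (log2 difference 0.89, SE 0.25, adjusted p = 0.0046). The 3′ region at X:7163959-7172345, over exons, introns and the 3′ UTR, went the other way. It had 13.8 and 19.8 CPM in TGFβ iTreg and 33.5 and 37.9 CPM in Treg (log2 difference -1.07, SE 0.19, adjusted p = 2.9e-07), with 42.4 CPM in RA/VitC iTreg and 15.1 CPM in naive cells. The TGFβ iTreg level of this 3′ region thus stood beside the naive level, while the Treg level stood beside that of RA/VitC iTreg. Because only the 3′ region carries the symbol Foxp3 in the table, the gene sum of Foxp3 was lower in TGFβ iTreg (log2 difference -1.06, SE 0.18, adjusted p = 3.1e-07), and that of Flicr was higher (log2 difference 3.18, SE 0.12, adjusted p = 4.3e-49). The sum for Foxp3 alone therefore gives only the 3′ end of the locus.

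**Figure D2:**
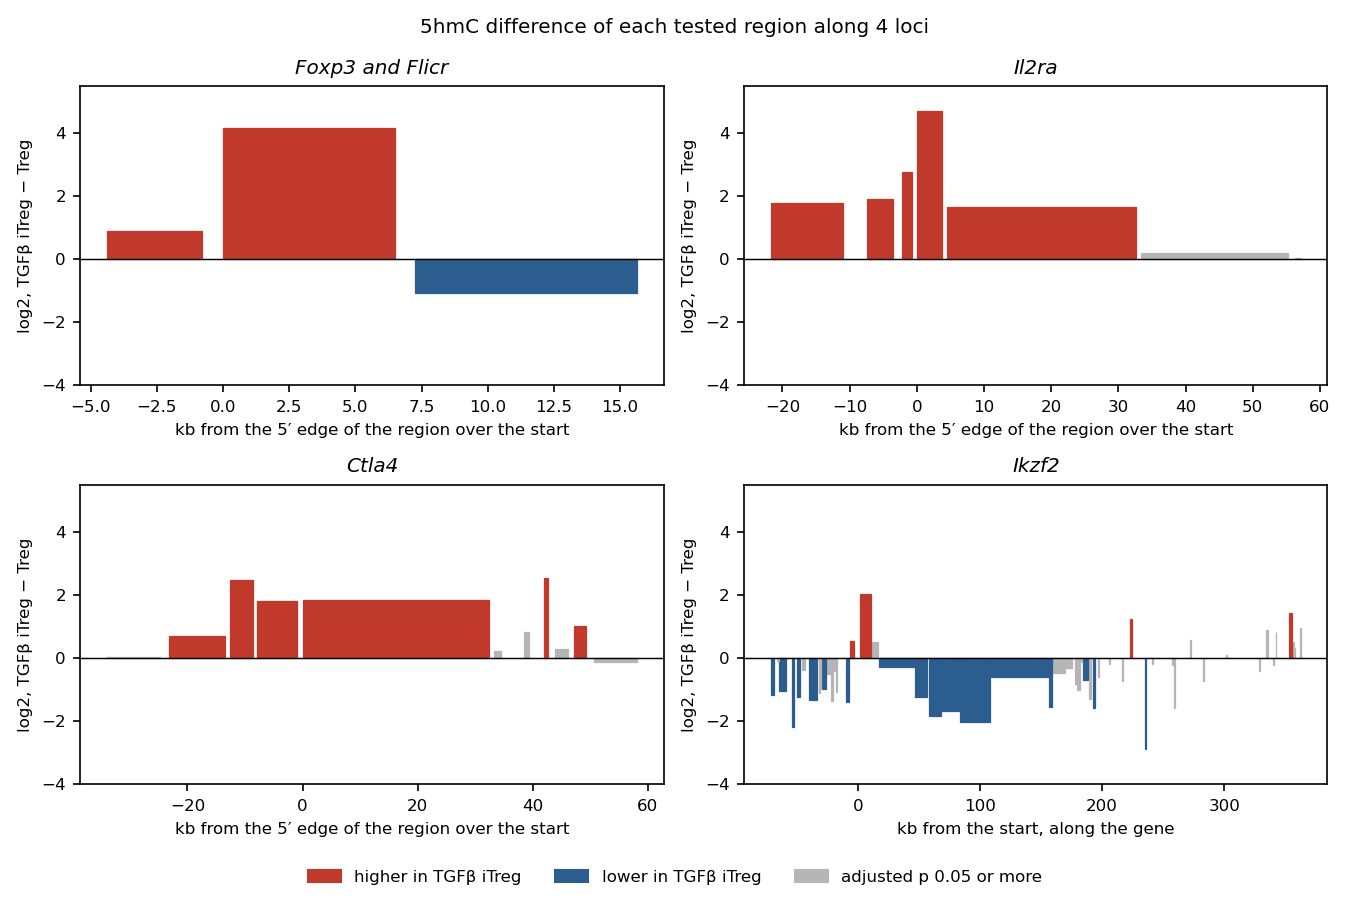
Log2 difference of 5hmC, TGFβ iTreg over Treg, for each tested region along 4 loci, drawn to width in kb from the start region (from the start for Ikzf2). Bars above 0 are higher in TGFβ iTreg, and grey bars did not pass the test. The bars peak over the starts of Foxp3 (4.17) and Il2ra (4.71), and along Ikzf2 they turn from 2.04 next to the start to -2.02 further in.

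Il2ra encodes the alpha chain of the high-affinity interleukin-2 receptor (CD25), which Treg carry at high levels. Of its 7 tested regions, 5 were higher in TGFβ iTreg and 0 were lower, beside 9.58% and 5.82% over all tested regions. The region over the start, at 2:11563877-11567653 (promoter, 5′ UTR, exon and intron), had 66.00 and 77.2 CPM in TGFβ iTreg and 3.57 and 1.94 CPM in Treg (log2 difference 4.71, SE 0.19, adjusted p = 1.6e-127). RA/VitC iTreg averaged 11.3 CPM there and naive cells 4.52 CPM, so the TGFβ iTreg libraries stood above all the others. The promoter region just before it, at 2:11561693-11563153, had 44.2 and 50.2 CPM in TGFβ iTreg and 7.51 and 6.49 CPM in Treg (log2 difference 2.76). Further upstream the differences were smaller, at 1.92 for 2:11556500-11560328 and 1.78 for 2:11542131-11552844. Across the gene body, 2:11568438-11596474, levels were 371 and 468 CPM in TGFβ iTreg and 129 and 136 CPM in Treg (log2 difference 1.66, SE 0.08, adjusted p = 9.7e-87), and RA/VitC iTreg had 646 CPM. Toward the 3′ end, 2:11597273-11619124, the groups overlapped at 92.98 and 119 CPM in TGFβ iTreg and 94.5 and 92.9 CPM in Treg (log2 difference 0.19, adjusted p = 0.23). The log2 difference along Il2ra therefore ran from 4.71 over the start through 1.66 in the body to 0.19 at the 3′ end.

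Ctla4 encodes an inhibitory receptor of T cells that Treg use constantly. In TGFβ iTreg 6 of its 11 tested regions were higher and 0 lower, beside 9.58% and 5.82% over all tested regions. One region of the table covers the whole gene, 1:60948242-60980683, and had 358 and 441 CPM in TGFβ iTreg and 113 and 109.9 CPM in Treg (log2 difference 1.84, SE 0.08, adjusted p = 1.6e-104). Its RA/VitC iTreg mean was 415 CPM and its naive mean 73.4 CPM, so both kinds of iTreg were above both kinds of freshly sorted cells. The region upstream at 1:60935711-60939602 differed by 2.47 and the one downstream at 1:60990280-60990959 by 2.55. Tnfrsf18 encodes GITR, a TNF receptor of Treg and activated T cells. Its gene region at 4:155401168-155405840 (exons, introns and 3′ UTR) had 48.8 and 66.6 CPM in TGFβ iTreg and 26.8 and 25.6 CPM in Treg (log2 difference 1.15). With the inputs in the same model that difference was 1.11 and did not pass (adjusted p = 0.078). The region over the Tnfrsf18 promoter, 4:155395750-155400069, had 41.3 and 60.8 CPM in TGFβ iTreg and 32.6 and 41.7 CPM in Treg (log2 difference 0.47, adjusted p = 0.006). There the lower TGFβ iTreg library did not clear the higher Treg library, and without TGFβ iTreg replicate 2 the difference was 0.13. The promoter region did not pass with DESeq2 (adjusted p = 0.105), at equal depth (adjusted p = 0.079) or with the inputs in the same model (adjusted p = 0.77).

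Ikzf2 (Helios), a transcription factor found at high levels in Treg that arise in the thymus, had the most lower regions of the Treg loci described here. It also had the most tested regions of these loci. Of 52 tested Ikzf2 regions, 17 were lower and 4 higher, beside 5.82% and 9.58% over all tested regions. The intragenic region at 1:69624171-69648754 had 56.8 and 56.5 CPM in TGFβ iTreg and 232 and 228 CPM in Treg (log2 difference -2.02, SE 0.11, adjusted p = 1.2e-71), while RA/VitC iTreg averaged 60.8 CPM and naive cells 24.3 CPM. Both kinds of iTreg thus lay between naive cells and Treg there. At the 3′ end, 1:69576912-69623360, levels were 194 and 199.9 CPM in TGFβ iTreg and 289.8 and 301 CPM in Treg (log2 difference -0.58) and RA/VitC iTreg had 284 CPM. Next to the start the order turned. The region at 1:69721864-69730680 (exon and intron) had 53.9 and 82.6 CPM in TGFβ iTreg and 16.7 and 16.97 CPM in Treg (log2 difference 2.04), with 67.7 CPM in RA/VitC iTreg. Summed over all its regions, Ikzf2 had 849 and 872 CPM in TGFβ iTreg and 1380.3 and 1390.5 CPM in Treg (log2 difference -0.69, SE 0.05, adjusted p = 2.2e-26). Ikzf4 (Eos), a corepressor partner of Foxp3, had 2 regions, which were called in opposite directions. The region toward its 3′ end, 10:128064275-128073736, had 17.8 and 29.4 CPM in TGFβ iTreg and 49.3 and 47.8 CPM in Treg (log2 difference -1.01). That region also overlaps a promoter, and the nearest start is that of Rps26 (-712 bp). The 5′ part of Ikzf4, 10:128074640-128082643, had 65.4 and 80.6 CPM in TGFβ iTreg and 54.7 and 56.7 CPM in Treg (log2 difference 0.40, adjusted p = 0.0086). Without TGFβ iTreg replicate 2 that difference was 0.21. It did not pass with DESeq2 (adjusted p = 0.054) or with the inputs in the same model (adjusted p = 0.30). The Ikzf4 sum did not pass the test (log2 difference -0.08, SE 0.09, adjusted p = 0.52).

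Across a list of 38 Treg signature genes, 34 could be tested, 18 were higher in TGFβ iTreg, 10 were lower and 6 did not pass. Their median log2 difference was 0.29, beside -0.02 over all genes, and beside 20.7% of all genes called higher and 15.0% called lower. Here and below, lists were not matched to all genes for level. Among regions, the 10% with the highest levels had 21.2% higher and 23.8% lower. The largest rises of the Treg signature were at Socs2, S100a4 and Gpr15. Socs2, a feedback inhibitor of cytokine signalling, had 224 and 289 CPM in TGFβ iTreg and 69.2 and 70.7 CPM in Treg (log2 difference 1.89, SE 0.08, adjusted p = 8.3e-44). S100a4, a calcium-binding protein of activated and effector T cells, had 37.2 and 47.3 CPM in TGFβ iTreg and 11.3 and 12.2 CPM in Treg (log2 difference 1.86, SE 0.17, adjusted p = 1.1e-17), and both TGFβ iTreg libraries lay above both Treg libraries. Lrrc32 (GARP), which holds latent TGFβ on the Treg surface, had 383 and 414 CPM in TGFβ iTreg and 199.6 and 196 CPM in Treg (log2 difference 1.01). Il1rl1, the receptor for interleukin-33 on tissue Treg, differed by 1.04, and Icos, a costimulatory receptor, by 0.78. On the lower side, Klrg1, a marker of terminally differentiated Treg, had 33.4 and 27.6 CPM in TGFβ iTreg and 57.1 and 54.9 CPM in Treg (log2 difference -0.89, SE 0.15, adjusted p = 1.4e-07). Itgb8, the integrin chain that helps release active TGFβ, had 60.3 and 66.6 CPM in TGFβ iTreg and 98.5 and 94.8 CPM in Treg (log2 difference -0.60). Of 28 Treg transcription factors, 8 were higher and 11 lower, with a median of -0.14. Xbp1, a factor of the unfolded protein response, rose by 1.21, Irf4 by 0.85 and Prdm1 (Blimp-1) by 0.76, which are factors of effector Treg. Myb, another transcription factor of the list, fell by 0.73 to 135 and 145 CPM in TGFβ iTreg, against 233 and 234 CPM in Treg.

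Regions that lie over an annotated start were then taken alone, a choice made after values had been seen. Of 3502 such regions with a test, 447 were higher (12.8%) and 486 lower (13.9%), with a median of -0.15. Among those of the Treg signature, 13 of 27 were higher and 2 were lower, at Ikzf3 and Lad1, with a median of 0.44. The Socs2 start had 152 and 203 CPM in TGFβ iTreg and 39.8 and 39.5 CPM in Treg (log2 difference 2.17, SE 0.10, adjusted p = 5.8e-92). The Lrrc32 start had 235 and 278 CPM in TGFβ iTreg and 116 and 118 CPM in Treg (log2 difference 1.14, SE 0.09, adjusted p = 7.4e-36). At the starts of Gpr83 and Izumo1r (folate receptor 4), 2 surface proteins of Treg, the log2 differences were 0.00 and -0.05 and did not pass. Gene sums and start regions thus did not always move together, as at Foxp3.

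Genes of the TGFβ pathway, which signals through the receptors Tgfbr1 and Tgfbr2 to Smad proteins, were more often lower than higher. Of 30 tested, 6 were higher and 12 lower, with a median of -0.11, beside 20.7% and 15.0% over all genes. The ligand gene Tgfb1 had 84.7 and 97.3 CPM in TGFβ iTreg and 139 and 147 CPM in Treg (log2 difference -0.64, SE 0.09, adjusted p = 2.5e-09), and the groups did not overlap. Both receptor genes were lower, by a log2 difference of -0.28 at Tgfbr1 and -0.42 at Tgfbr2. Smad4, the shared partner of the receptor-activated Smads, differed by -0.46, and Ski, which represses Smad target genes, by -0.47. Tgif2, another corepressor of Smad targets, had 69.3 and 73.9 CPM in TGFβ iTreg and 114 and 112 CPM in Treg (log2 difference -0.65). Ltbp1, which stores latent TGFβ in the matrix, differed by -0.65. Smad3, the receptor-activated Smad that acts at the Foxp3 enhancer CNS1, was higher (log2 difference 0.38, SE 0.05, adjusted p = 9.7e-10). Smad7 and Skil, induced inhibitors of the pathway, did not pass, at 0.01 and -0.01. The highest members were Lrrc32, Itgav, an integrin chain that binds latent TGFβ (0.71), and Furin, the protease that matures TGFβ (0.76).

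Interleukin-2 acts through STAT5, and 3 feedback inhibitors of cytokine receptor signals, Cish, Socs1 and Socs2, carried more 5hmC in TGFβ iTreg, while Socs5 carried less and Socs3, Socs4, Socs6 and Socs7 did not pass. Of 23 genes listed for STAT5 and SOCS, 10 were higher and 3 lower, with a median of 0.11, beside 20.7% and 15.0% over all genes. Cish, a STAT5 target that dampens receptor signals, had 422 and 497 CPM in TGFβ iTreg and 117 and 119.7 CPM in Treg (log2 difference 1.96, SE 0.07, adjusted p = 1.2e-55). The Il2 gene itself had 96.9 and 110.3 CPM in TGFβ iTreg and 55.7 and 44.1 CPM in Treg (log2 difference 1.07), and Il2rb, the beta chain of the receptor, differed by 0.66. Stat5b differed by -0.35 and Socs5 by -0.35, both lower. With the inputs in the same model, Socs5 did not pass (-0.26, adjusted p = 0.18). Stat5a was lower as well at -0.34 (adjusted p = 1.9e-04), and did not pass when the inputs were put into the same model (adjusted p = 0.46). Socs1 differed by 1.53. With library size in place of TMM, or on the transcript alone, 5 members of the list were lower, and 1 in the interaction with the inputs.

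Among helper-cell genes, the clearest rise was at Il17a, the cytokine of Th17 cells. Il17a has 1 region in the table, which lies off the transcript, and had 19.9 and 35.9 CPM in TGFβ iTreg and 0.269 and 1.23 CPM in Treg (log2 difference 5.17, SE 0.36, adjusted p = 4.1e-26), with 3.10 CPM in RA/VitC iTreg and 1.40 CPM in naive cells. One Treg value lay below its floor of 3 reads and the other above it, so the size of the Il17a difference is imprecise. Ccl20, a chemokine of Th17 cells, had 19.3 and 32.3 CPM in TGFβ iTreg and 3.50 and 2.84 CPM in Treg (log2 difference 3.05, SE 0.27, adjusted p = 3.3e-19). Rora, a transcription factor of the lineage, was lower at -0.22. Of 15 Th17 genes, 6 were higher and 3 lower, with a median of 0.12, beside 20.7% and 15.0% over all genes. On the transcript alone 3 were higher and 5 lower, in the interaction with the inputs 1 was lower, and 3 were higher when genes with fewer than 50 reads on average were left out. Among 17 Th1 genes, 9 were higher and 2 lower, with a median of 0.43 (without TGFβ iTreg replicate 1 or Treg replicate 2, 1 was lower). Gzmb, a cytotoxic granule protease that effector Treg also make, had 314 and 340.3 CPM in TGFβ iTreg and 156 and 146 CPM in Treg (log2 difference 1.12), and Fasl, a death ligand, 164 and 156 CPM in TGFβ iTreg and 87.9 and 79.8 CPM in Treg (log2 difference 0.93). Of 15 Th2 genes, 7 were higher and 3 lower (1 without TGFβ iTreg replicate 1), with Ccr3, an eotaxin receptor, at 2.18 and Gata3, the factor that directs Th2 cells, at -0.30.

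**Figure D3:**
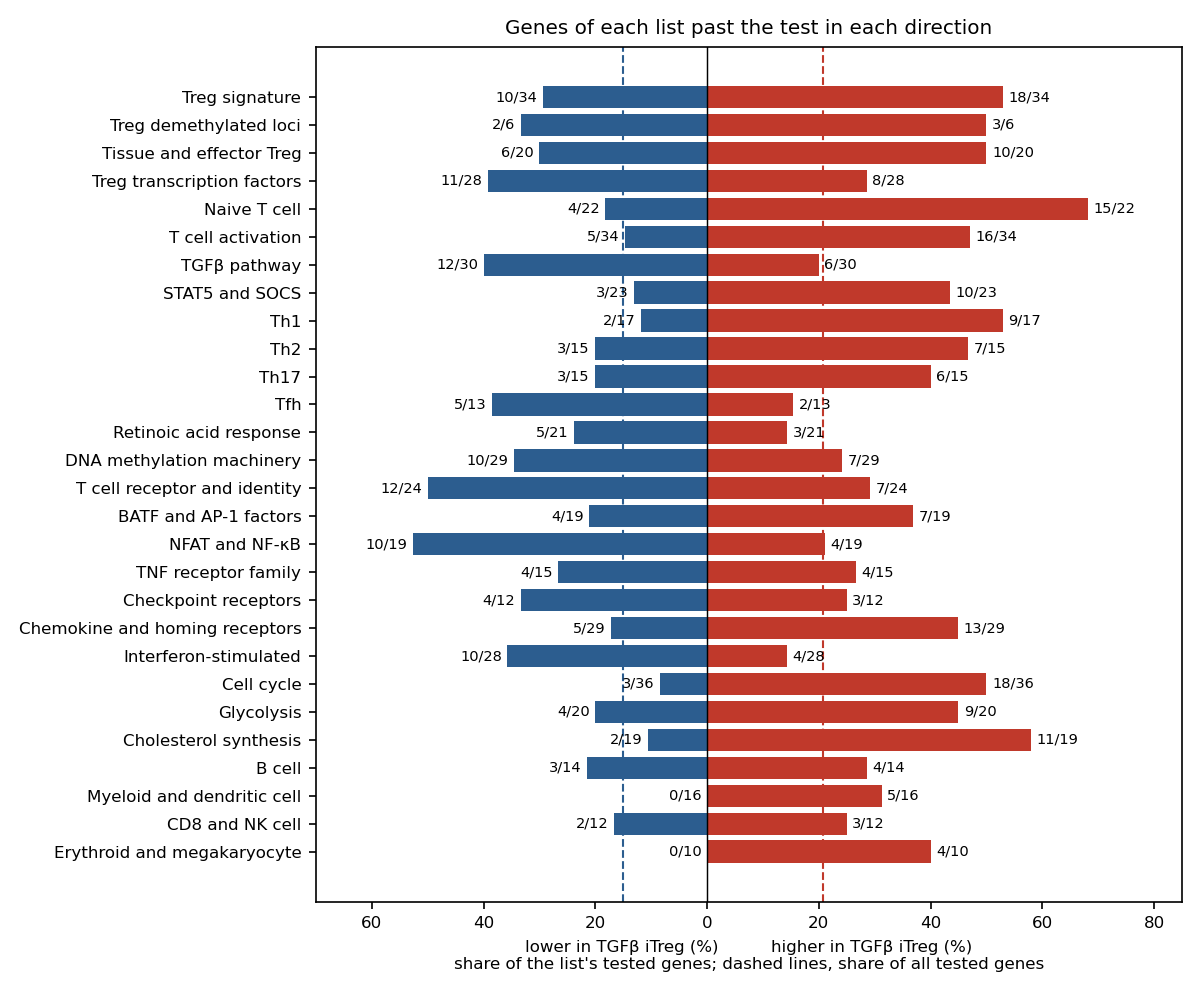
Members of each gene list called higher (right) or lower (left) in TGFβ iTreg, as a percent of the list's tested members, with the counts beside the bars. The dashed lines mark all tested genes (20.7% higher, 15.0% lower). The Treg signature bars show 18 higher and 10 lower of 34, and the TGFβ pathway bars 6 higher and 12 lower of 30.

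Naive T-cell genes, which keep resting cells in circulation, were mostly higher in TGFβ iTreg, at 15 of 22 with 4 lower and a median of 0.35, beside 20.7% and 15.0% over all genes. The sums of the list overlapped, at 14898 and 16542 CPM in TGFβ iTreg and 15300 and 15345 CPM in Treg. Il7r, the interleukin-7 receptor, had 306 and 339 CPM in TGFβ iTreg and 201 and 198 CPM in Treg (log2 difference 0.70, SE 0.06, adjusted p = 5.3e-18), with 315 CPM in naive cells. Ccr7, the homing receptor for lymph nodes, differed by 0.38 and Igfbp4 by 0.93. Foxo1, which drives Il7r, was lower at -0.38, and Satb1, a chromatin organiser of T cells, at -0.26. Of the activation genes, 16 of 34 were higher and 5 lower, with a median of 0.17, against those same shares. With library size in place of TMM or loess offsets 8 of them were lower, on the transcript alone 12 were higher and 11 lower, and in the interaction with the inputs 3 were lower. Jun, an AP-1 subunit, had 26.96 and 31.7 CPM in TGFβ iTreg and 13.2 and 13.1 CPM in Treg (log2 difference 1.17). Tfrc, the transferrin receptor of dividing cells, had 171 and 191 CPM in TGFβ iTreg and 98.5 and 97.1 CPM in Treg (log2 difference 0.90). The immediate early gene Egr1 had 60.98 and 57.8 CPM in TGFβ iTreg and 123 and 124.7 CPM in Treg (log2 difference -1.06, SE 0.11, adjusted p = 4.4e-16), and Nr4a1 (Nur77), induced by T-cell receptor signals, had 132 and 131 CPM in TGFβ iTreg and 198 and 194 CPM in Treg (log2 difference -0.58). Egr1 and Nr4a1 were thus lower in TGFβ iTreg while Jun was higher.

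T-cell receptor and identity genes had a median of -0.17, with 7 of 24 higher and 12 lower beside 20.7% and 15.0% over all genes (7 lower without TGFβ iTreg replicate 1). Cd6, a costimulatory receptor, had 65.5 and 76.5 CPM in TGFβ iTreg and 119 and 118 CPM in Treg (log2 difference -0.72, SE 0.10, adjusted p = 8.2e-10), and Cd3g, a chain of the receptor complex, had 27.6 and 39.02 CPM in TGFβ iTreg and 51.4 and 56.7 CPM in Treg (log2 difference -0.68). Cd4, the coreceptor by which all these cells were selected, differed by -0.44, and Lck, the kinase bound to it, by -0.47. Runx3, a factor of CD8 and Th1 cells, was higher at 0.68, as were Cd2 at 0.60 and Thy1 at 0.56. Of 19 genes for NFAT and NF-κB, 4 were higher and 10 lower, with a median of -0.23, and 2 were higher without TGFβ iTreg replicate 2 or without Treg replicate 1. Nfatc2 (NFAT1), activated by calcium signals, had 626 and 673 CPM in TGFβ iTreg and 413 and 415 CPM in Treg (log2 difference 0.65, SE 0.05, adjusted p = 3.5e-21). The inhibitor genes Nfkbid, needed for Treg development in the thymus, and Nfkbie were lower, at -0.97 and -0.87. With the inputs in the same model neither passed (adjusted p = 0.23 and 0.19), and 4 members of the list were lower.

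Interferon-stimulated genes had 4 higher and 10 lower of 28, with a median of -0.35, beside 20.7% and 15.0% over all genes. Ifitm3, which blocks the entry of viruses into cells, was among the 12 largest rises of genes with at least 100 reads on average. Ifitm3 had 229 and 240.4 CPM in TGFβ iTreg and 22.9 and 21.1 CPM in Treg (log2 difference 3.42, SE 0.10, adjusted p = 2.7e-63), and Ifitm1, its neighbour in the gene cluster, had 166 and 173 CPM in TGFβ iTreg and 30.1 and 37.4 CPM in Treg (log2 difference 2.32). The Ifitm genes are near-identical copies in part, so the split of reads among them is uncertain. Isg15, a ubiquitin-like protein induced by interferon, went the other way. Isg15 has 1 tested region, over its start at 4:155572266-155575555, and had 8.99 and 9.89 CPM in TGFβ iTreg and 23.8 and 24.4 CPM in Treg (log2 difference -1.35, SE 0.23, adjusted p = 5.5e-07). Irf9, a subunit of the interferon response complex, fell to a log2 difference of -1.05, and Trim25 to -0.92. With the inputs in the same model, the Isg15 difference was -0.79 (adjusted p = 0.34) and 4 members of the list were lower.

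The genes that write, read and remove DNA methylation had 7 higher and 10 lower of 29, with a median of -0.07, beside 20.7% and 15.0% over all genes (4 higher without TGFβ iTreg replicate 2). Dnmt3a, the de novo methyltransferase, had 275 and 314 CPM in TGFβ iTreg and 484 and 469 CPM in Treg (log2 difference -0.69, SE 0.06, adjusted p = 4.9e-19). Tdg, the glycosylase that removes oxidised methylcytosine further along the path from 5hmC, had 56.5 and 46.8 CPM in TGFβ iTreg and 72.8 and 75.1 CPM in Treg (log2 difference -0.53). Dnmt1, the maintenance methyltransferase, was higher at 0.28, and Dnmt3l, a cofactor of the de novo enzymes in germ cells, at 1.53. The sums of the TET genes did not move as a group: Tet1 was higher (log2 difference 0.30, SE 0.08, adjusted p = 0.0014), while Tet2 and Tet3 did not pass at -0.05 (adjusted p = 0.6) and -0.10 (adjusted p = 0.15). Over the starts, the Tet3 region was lower (log2 difference -0.31, adjusted p = 0.0047). The start regions of Tet1 (0.24) and Tet2 (-1.01) did not pass. Regions over the starts of this list were 0 higher and 5 lower of 13, beside 12.8% and 13.9% of all regions over a start.

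Among genes that averaged 100 reads or more and whose groups did not overlap, the largest rises were mostly at genes outside these lists. Pitx1, a homeobox factor of hindlimb and pituitary development, had 138 and 146 CPM in TGFβ iTreg and 5.79 and 5.67 CPM in Treg (log2 difference 4.63, SE 0.14, adjusted p = 2.3e-59), and all 5 of its regions were higher. The Pitx1 region with the most reads, 13:55975489-55978783, is intergenic and had 80.9 and 90.8 CPM in TGFβ iTreg and 3.82 and 2.73 CPM in Treg. RA/VitC iTreg averaged 119 CPM at Pitx1 and naive cells 4.23 CPM, so both kinds of iTreg were high. Shroom3, an actin-binding protein that shapes epithelia, had 104 and 141 CPM in TGFβ iTreg and 11.6 and 10.4 CPM in Treg (log2 difference 3.50). Lifr, the receptor for leukaemia inhibitory factor, had 116 and 119 CPM in TGFβ iTreg and 12.6 and 12.9 CPM in Treg (log2 difference 3.20). Tead1, the DNA-binding partner of YAP in the Hippo pathway, was higher in 18 of 21 tested regions, with 93.1 and 102 CPM in TGFβ iTreg and 12.1 and 12.9 CPM in Treg (log2 difference 2.96). Tent5a, a poly(A) polymerase, was higher in 24 of 30 regions (log2 difference 3.13), and Actr3b, an actin-related protein, in 14 of 18 (log2 difference 2.91). Over all tested regions, 9.58% were higher and 5.82% lower. These genes were picked by sums of the same reads, so their region counts are not separate support. Cacng6, a calcium channel subunit, differed by 3.60 and Stfa3, a cysteine protease inhibitor, by 3.14. The regions of Pitx1, Cacng6 and Stfa3 are all intergenic, and their assignment to these genes is the table's. Pou5f1-rs4 differed by 3.77, and with regions on the transcript alone by 2.15 (adjusted p = 0.063).

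Among the same well-covered genes, the largest falls were smaller than the largest rises. Arhgap20, a GTPase-activating protein, had 168 and 137 CPM in TGFβ iTreg and 441 and 438 CPM in Treg (log2 difference -1.54, SE 0.07, adjusted p = 1.5e-40), with 76.01 CPM in RA/VitC iTreg and 122 CPM in naive cells. Beside 5.82% lower and 9.58% higher over all tested regions, 9 of 11 Arhgap20 regions were lower. Arhgap20 was picked by the sum of the same reads, so that count is not separate support. Its antisense neighbour Arhgap20os differed by -1.38, and the table's regions carry no strand, so the pair cannot be told apart where they overlap. Tmem88, a membrane protein that restrains Wnt signalling, had 29.5 and 31.7 CPM in TGFβ iTreg and 81.5 and 91.4 CPM in Treg (log2 difference -1.49). Ppm1b, a protein phosphatase, had 212 and 242 CPM in TGFβ iTreg and 488 and 523 CPM in Treg (log2 difference -1.15). Gimap5, a GTPase needed for the survival of lymphocytes, had 14.8 and 15.6 CPM in TGFβ iTreg and 34.99 and 33.3 CPM in Treg (log2 difference -1.16). Map3k11, a kinase upstream of JNK, differed by -1.27, Hsdl1 by -1.18, and Atrip, which recruits the ATR kinase to damaged DNA, by -1.15. C1ql3 and C1qtnf2, secreted proteins of the C1q family, differed by -1.25 and -1.23. Tpmt, a drug-metabolising methyltransferase, differed by -1.25 (adjusted p = 0.24 with the inputs in the same model).

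Among single regions with at least 50 reads on average, the largest rise was intergenic. The region at 13:18764831-18769427, assigned to Vps41, an endosomal trafficking protein, had 59.1 and 59.4 CPM in TGFβ iTreg and 1.11 and 1.71 CPM in Treg (log2 difference 5.36, SE 0.23, adjusted p = 1.5e-117). An intronic region of Cfap206, a protein of cilia, at 4:34640323-34641655 had 50.5 and 54.1 CPM in TGFβ iTreg and 2.59 and 1.94 CPM in Treg (log2 difference 4.53). A region of exon and intron in Nek9, a mitotic kinase, at 12:86652154-86653156 had 57.4 and 47.8 CPM in TGFβ iTreg and 2.46 and 2.51 CPM in Treg (log2 difference 4.38), and here RA/VitC iTreg averaged 11.5 CPM. In each of these the Treg values stood close to the naive level, which was 1.10, 1.10 and 1.82 CPM. Of the lower regions, one over exon and intron of Kit, the stem cell factor receptor, at 5:76048058-76049903 had 0.574 and 1.45 CPM in TGFβ iTreg and 12.1 and 14.7 CPM in Treg (log2 difference -3.65, SE 0.47, adjusted p = 3.3e-13), with 0.859 CPM in RA/VitC iTreg and 4.86 CPM in naive cells. Neither TGFβ iTreg value of the Kit region exceeded its floor of 3 reads, so the size of that difference is imprecise. A region in an intron of Zc3h12c, a ribonuclease related to Regnase-1, at 9:51972807-51974534 had 3.44 and 1.93 CPM in TGFβ iTreg and 11.2 and 13.7 CPM in Treg (log2 difference -2.24). RA/VitC iTreg averaged 1.42 CPM at the Zc3h12c region and naive cells 0.581 CPM, both below the Treg level. Regions in Rsu1 and Ntn4, a Ras suppressor and a netrin, differed by -2.17 and -2.12.

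Some genes changed over many regions in 1 direction, and others in both. Rad51b, a DNA repair gene, was lower in 37 and higher in 4 of 104 regions, and its sum had 800.4 and 805 CPM in TGFβ iTreg and 1340.5 and 1254 CPM in Treg (log2 difference -0.69, SE 0.05, adjusted p = 8.3e-26). Glcci1, a glucocorticoid-induced gene, was lower in 24 of 74 regions and higher in 1 (sum -0.63). Tox, a factor of CD4+ lineage development and of exhausted T cells, was lower in 26 and higher in 5 of 164 (sum -0.37). Setbp1, a chromatin-binding protein, was higher in 35 of 88 regions and lower in 1, and had 852 and 827 CPM in TGFβ iTreg and 310.2 and 293 CPM in Treg (log2 difference 1.48). With regions on the transcript alone the Setbp1 difference was 0.21 (adjusted p = 0.05). Inpp4b, a phosphoinositide phosphatase, was higher in 29 of 192 regions. Foxp1, which keeps T cells quiescent, had 8 higher and 8 lower of 72 regions, and its sum did not pass (0.05, adjusted p = 0.42; 0.10 and adjusted p = 0.025 without TGFβ iTreg replicate 1). Runx1, which acts with Foxp3, had 12 higher and 8 lower of 101 regions, with a sum of -0.07 (adjusted p = 0.24) over all regions and -0.25 (adjusted p = 1.1e-05) on the transcript alone. Over all tested regions, 9.58% were higher and 5.82% lower.

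By position in the gene, the share of higher calls was above that of all regions in intergenic regions and in the 1817 regions on other transcripts (13.1%), and lower calls took their largest share among regions on a 5′ UTR. Of 42765 intergenic regions, 12.8% were higher and 3.99% lower, beside 9.58% and 5.82% over all regions. Of 6749 regions on a 5′ UTR, 10.1% were higher and 13.2% lower. Regions on introns alone had 7.79% higher and 5.47% lower. Width and depth moved with these shares. Among regions over 10 kb, 18.9% were higher and 37.8% lower, while up to 500 bp 8.13% were higher and 1.63% lower. In the 10% of regions with the lowest levels 10.4% were higher and 0.377% lower, and in the 10% with the highest levels 21.2% were higher and 23.8% lower. The count filter works on CPM, so low regions could enter the test on fewer reads in TGFβ iTreg than in Treg. Regions of the lowest class (median log2 difference 0.66) can thus have passed the filter through high TGFβ iTreg values. The split of calls in that class is therefore not a result about these regions. With all pull-downs thinned to equal depth, 62.99% of region calls were higher, against 62.2% at full depth. Among regions with a mean of at least 50 reads the share was 57.0%.

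**Figure D4:**
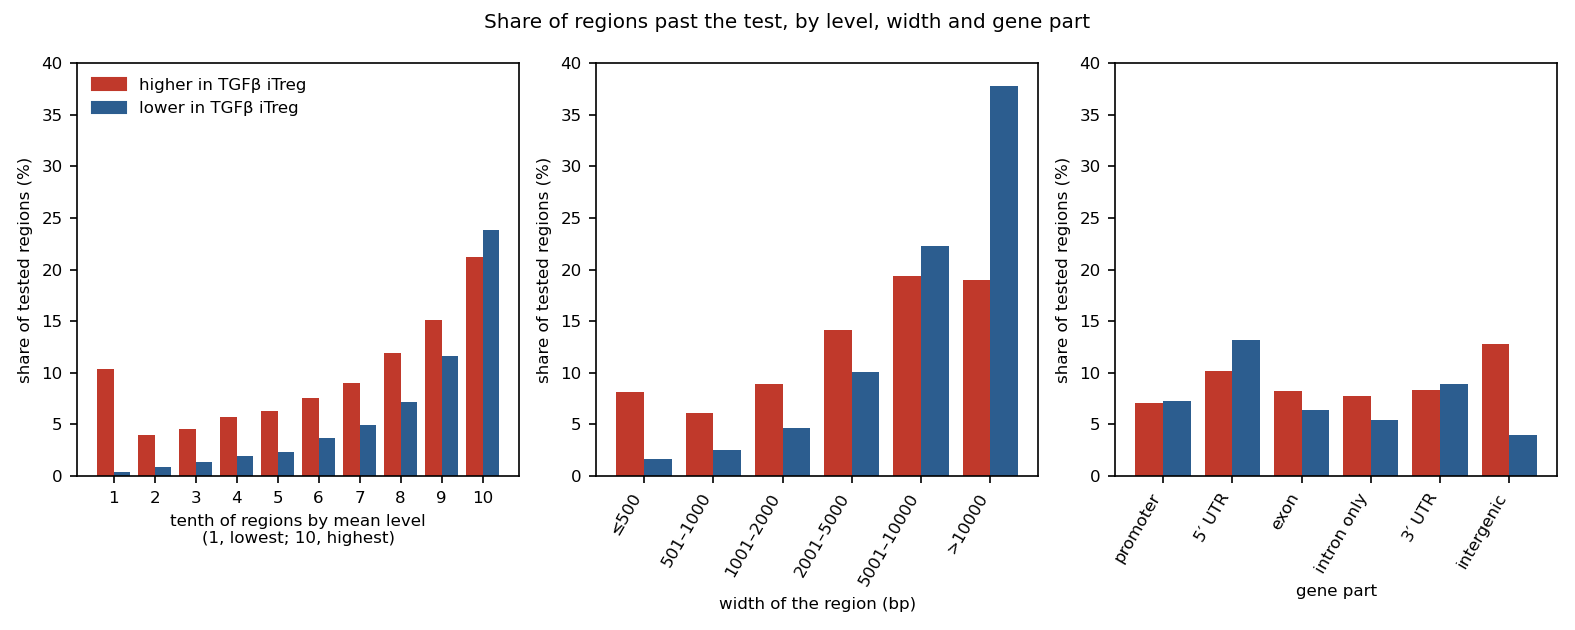
Share of tested regions called higher or lower in TGFβ iTreg, in percent, by mean level (10 equal classes of regions), width in bp and gene part. The lower calls climb with level and width, reaching 37.8% of regions over 10 kb, against 1.63% of regions up to 500 bp.

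Markers of other cells were measured at their gene loci, where 5hmC is not a marker of RNA. Of 14 B-cell genes, 4 were higher and 3 lower with a median of -0.38, beside 20.7% and 15.0% over all genes (2 higher without TGFβ iTreg replicate 2, and 6 lower with library size in place of TMM), and the list summed to 306 and 357 CPM in TGFβ iTreg and 342 and 334 CPM in Treg. Of 16 myeloid and dendritic genes, 5 were higher and 0 lower (3 higher without TGFβ iTreg replicate 2), with Csf3r, the receptor for granulocyte growth factor, at 2.37 and a sum of 548 and 561 CPM in TGFβ iTreg and 434 and 433 CPM in Treg. Of 12 CD8 and NK genes, 3 were higher and 2 lower (1 higher without TGFβ iTreg replicate 1, and 5 without Treg replicate 1), with a sum of 632 and 668 CPM in TGFβ iTreg and 746 and 748 CPM in Treg. Klrk1 (NKG2D), an activating receptor, had 14.1 and 21.3 CPM in TGFβ iTreg and 4.98 and 3.95 CPM in Treg (log2 difference 2.02), while the coreceptor genes Cd8a and Cd8b1 were lower at -1.15 and -1.12. Of 10 erythroid genes, 4 were higher and 0 lower (1 higher with a mean of at least 50 reads or on the transcript alone), with a sum of 175 and 191 CPM in TGFβ iTreg and 92.6 and 86.9 CPM in Treg. The globin gene Hba-a2 had 37.2 and 41.6 CPM in TGFβ iTreg and 1.75 and 2.47 CPM in Treg (log2 difference 4.21, SE 0.25, adjusted p = 1.6e-31), and reads can be shared with its near-identical copy. RA/VitC iTreg averaged 15.7 CPM at Hba-a2 and naive cells 1.06 CPM. No tested member of these 4 lists was at 0 in any of the 4 libraries, and the part of other cells in the results was not tested.

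Inputs and pull-downs differed in the same direction in 2 windows, which were chosen after their values had been seen. The first spans 14:54633393-54803868 next to Dad1, holds 21 regions with no symbol in the table, and had 11 of its 14 tested regions lower and 0 higher. The T-cell receptor alpha locus, which T cells rearrange by deleting DNA, is known to lie beside Dad1. As CPM by plain library size, without TMM, pull-downs had 17.6 and 17.97 in TGFβ iTreg, 11.8 and 10.2 in the RA/VitC kind, 68.05 and 60.8 in naive cells and 102 and 97.5 in Treg. Inputs had 25 and 9 reads in TGFβ iTreg, 15 and 14 with RA and vitamin C added, 60 and 57 in naive cells and 55 and 45 in Treg. On that scale the TGFβ iTreg inputs were 22.6 and 7.31, both below the Treg inputs at 35.2 and 34.1. The deepest lower region there, 14:54778962-54782471, had in TMM-scaled values 1.15 and 0.966 CPM in TGFβ iTreg and 13.9 and 15.6 CPM in Treg (log2 difference -3.79, SE 0.46, adjusted p = 6.9e-15), with 0 and 0 CPM in the TGFβ iTreg inputs and 5.12 and 5.31 CPM in the Treg inputs. Both TGFβ iTreg pull-down values of this region lay below their floor of 3 reads. With the inputs in the same model, 0 of the 14 tested regions of this window were called, and the deepest one had an adjusted p of 0.64.

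The second window is an intergenic region of 747 bp assigned to Kdm8 (a Jumonji-domain hydroxylase), at 7:132581782-132582528, and was the 1 region called in the input test. Its inputs held 109 and 101 reads in TGFβ iTreg, 120 and 106 with RA and vitamin C added, 3 and 5 in naive cells and 4 and 1 in Treg (input log2 difference 5.62, SE 0.33, adjusted p = 7.0e-61). Both kinds of iTreg were high in the input and both kinds of freshly sorted cells were low. The pull-down log2 difference of the Kdm8 region was 4.47, with 27.3 and 22.2 CPM in TGFβ iTreg and 1.57 and 0.719 CPM in Treg, by plain library size. The 4 Kdm8 regions upstream had input levels of 33.4 and 30.9 CPM in TGFβ iTreg and 26.2 and 24.3 CPM in Treg, and none of them, nor of the 4 tested among the 7 downstream, was called in the pull-down. With the inputs in the same model, the Kdm8 region did not pass, at a log2 difference of -1.21 (SE 0.73, adjusted p = 0.46).

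**Figure D5:**
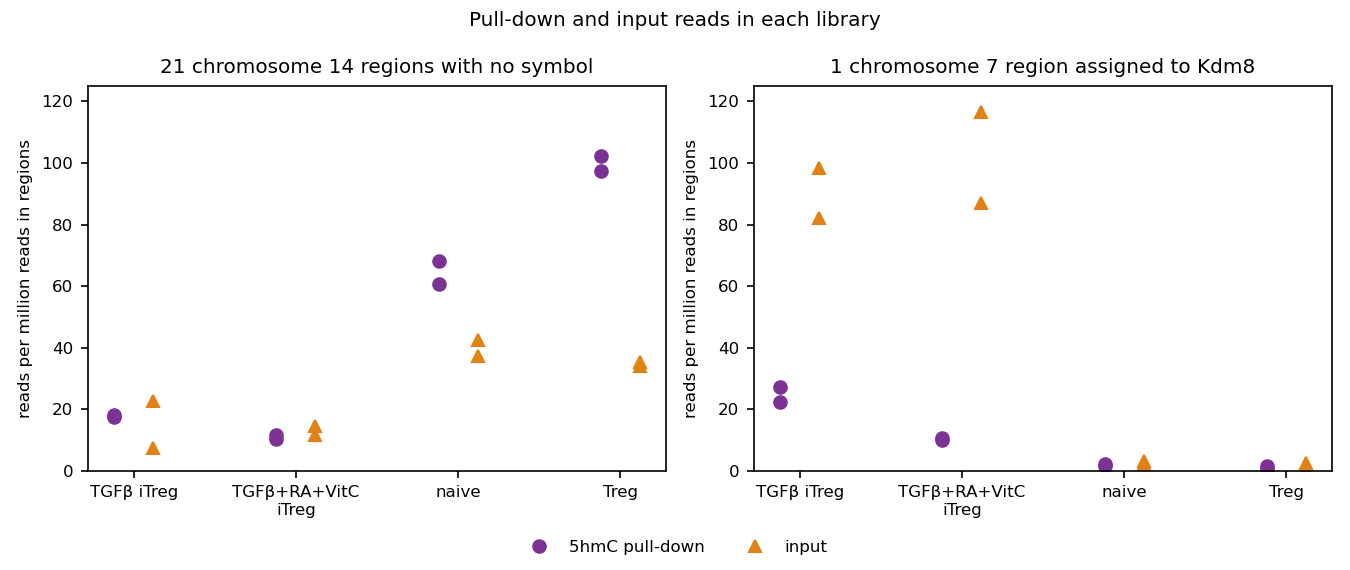
Pull-down (circles) and input (triangles) levels in CPM by plain library size (no TMM), 1 point per library, in the chromosome 14 window (left) and the Kdm8-assigned region (right), with TGFβ iTreg left of RA/VitC iTreg, naive cells and Treg. At the Kdm8 region the TGFβ iTreg inputs (98.4 and 82.1 CPM) lie far above the Treg inputs (2.56 and 0.758 CPM).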

How the data were processed

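The authors deposited raw counts of CMS-IP reads per region in 1 table for all 16 libraries. Per its file headers, the rows are broad MACS2 peaks (q of 0.01) merged over libraries, on mm9. The submitters' processing notes name MACS2 2.1.0.20151222, SAMtools 1.7, Trim Galore 0.4.2 and bcl2fastq 2.20.0.442, and name no aligner or counter (not given in the sources used here). Enrichment called in at least 1 library thus put a region into the table.

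edgeR 4.0.16 (R 4.3.3) was run genome-wide on the 8 pull-downs (4 groups, no covariate) with TMM, filterByExpr at a minimum count of 10, glmQLFit, glmQLFTest and Benjamini-Hochberg adjustment over all regions or genes. Gene values sum the regions assigned to a symbol, of which 14710 are current in the RefSeq table and 232 are synonyms. Input CPM and the levels of the 2 windows use plain library size. The test was run on simulated counts with a fixed spread, and balanced changes were planted only in well-covered regions and genes. Recovery of changes at low levels was not checked. Floors of 3 reads cover counting error only. Replicate pairs differed by more than counting noise (chi-square over degrees of freedom 1.12 in TGFβ iTreg and 1.23 in Treg).

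Named are the 12 highest and 12 lowest genes past the threshold (mean of at least 100 reads, no overlap of replicates, no predicted genes), 7 Treg genes, up to 3 members of each list in each direction, 8 regions in each direction (mean of at least 50 reads) with the top regions of these genes, and the genes with the most called regions. Other list members were named after their values were seen. Members and lists were chosen with earlier results of these data known. Alternatives were the scaling, DESeq2 1.42.0, the count filter, the libraries fitted, each library left out, thinning to equal depth, loess offsets, an interaction with the inputs and, for genes, regions on the transcript alone. Some results for single genes are not reported here.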

Additional observations from a re-analysis of the deposited data

How the results depend on the processing

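The counts called in each direction depended on depth and on the model. Against 12968 regions higher in the fit used in the text, 5702 were higher with a mean of at least 50 reads, 7633 after thinning all pull-downs to equal depth and 4039 in the interaction with the inputs, and leaving out 1 library gave 6902 to 11497. Against 7878 regions lower, DESeq2 gave 2469, the filter of 50 reads 4296, thinning 4484 and the interaction 1214, and leaving out 1 library gave 3600 to 6839. The interaction called 1737 genes higher and 838 lower, against 3102 and 2250, and DESeq2 called 1407 genes lower. Leaving out 1 library gave 2172 to 2875 genes higher and 1504 to 2077 lower. Of gene calls, 58.0% were higher under TMM, 48.6% with library size alone, 63.9% with DESeq2 and 67.5% in the interaction, where the figure for regions was 76.9%. Over 166 gene results and their 2127 alternative values, 1969 kept direction and side of the threshold, 149 lost the threshold, 4 gained it and 5 changed sign. Those 5 were Nfat5 on the transcript alone (-0.077), Ly6c2 in the interaction (-0.0034) and on the transcript alone (-0.11), and Maff (0.071) and Pvr (0.021) in the interaction. Of 391 values for 33 regions, 378 kept both, 12 lost the threshold and 1 changed sign, at 14:54778962 in the interaction (3.43), where the TGFβ iTreg inputs held 0 reads. The cause of the other changes was not tested. No paired analysis was possible because the TGFβ iTreg and Treg labels share no replicate number. Of regions, 8.26 and 6.35% held 0 reads in the TGFβ iTreg libraries, against 0.386 and 0.347% in Treg.

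List counts that moved by over 1.5 times in settings other than leaving out a library were these. In the interaction, 1 Tfh (against 2), 4 DNA methylation (against 7), 4 T-cell receptor (against 7), 4 BATF and AP-1 (against 7), 2 NFAT and NF-κB (against 4), 2 interferon (against 4), 10 cell cycle (against 18), 5 glycolysis (against 9), 7 cholesterol (against 11) and 3 myeloid (against 5) members were higher, and 6 Treg signature (against 10), 3 activation (against 5), 1 STAT5 and SOCS (against 3), 1 Th1 (against 2), 1 Th17 (against 3), 3 retinoic acid (against 5), 4 DNA methylation (against 10), 1 BATF and AP-1 (against 4), 4 NFAT and NF-κB (against 10), 1 TNF receptor (against 4), 4 interferon (against 10), 2 glycolysis (against 4), 0 cholesterol (against 2) and 1 B-cell (against 3) members were lower. On the transcript alone, 3 Th17 (against 6), 1 Tfh (against 2) and 1 erythroid (against 4) members were higher, and 11 activation (against 5), 5 STAT5 and SOCS (against 3), 4 Th1 (against 2), 5 Th17 (against 3), 3 Tfh (against 5), 2 TNF receptor (against 4), 3 homing receptor (against 5), 2 glycolysis (against 4), 1 cholesterol (against 2) and 4 CD8 and NK (against 2) members were lower. At equal depth, 4 DNA methylation (against 7), 10 cell cycle (against 18) and 3 myeloid (against 5) members were higher, and 3 tissue Treg (against 6), 1 Th1 (against 2), 3 Tfh (against 5), 1 TNF receptor (against 4), 2 checkpoint (against 4), 3 homing receptor (against 5), 2 glycolysis (against 4), 1 cholesterol (against 2) and 1 B-cell (against 3) members were lower. With DESeq2, 2 NFAT and NF-κB (against 4), 3 myeloid (against 5) and 1 CD8 and NK (against 3) members were higher, and 1 Th1 (against 2), 1 Th2 (against 3), 2 BATF and AP-1 (against 4), 2 TNF receptor (against 4), 2 homing receptor (against 5), 1 glycolysis (against 4), 0 cholesterol (against 2) and 1 B-cell (against 3) members were lower. With library size alone, 2 NFAT and NF-κB (against 4) members were higher, and 8 activation (against 5), 5 STAT5 and SOCS (against 3), 6 B-cell (against 3) and 1 myeloid (against 0) members were lower. With loess offsets, 2 NFAT and NF-κB (against 4) members were higher, and 8 activation (against 5) members were lower. With a mean of at least 50 reads, 3 Th17 (against 6), 3 myeloid (against 5) and 1 erythroid (against 4) members were higher.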

Other observations

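Genes of cell division and metabolism, which the comparisons above do not describe, were more often higher than lower in TGFβ iTreg. Of 36 cell cycle genes, 18 were higher and 3 lower, with a median of 0.28 beside -0.02 over all genes and beside 20.7% higher and 15.0% lower over all genes (10 higher without TGFβ iTreg replicate 2). Cdkn1a (p21), a cyclin-dependent kinase inhibitor, had 59.7 and 52.6 CPM in TGFβ iTreg and 14.5 and 17.8 CPM in Treg (log2 difference 1.78, SE 0.15, adjusted p = 3.6e-20), and Cdc25b, a phosphatase that starts mitosis, had 60.98 and 58.8 CPM in TGFβ iTreg and 18.2 and 17.9 CPM in Treg (log2 difference 1.73). Ccna2 (cyclin A2) differed by 1.21. Ccnd2 (cyclin D2), which acts early in the cycle, was lower, with 83.4 and 85.3 CPM in TGFβ iTreg and 165 and 166 CPM in Treg (log2 difference -0.97). Of 20 glycolysis genes, 9 were higher and 4 lower, and 1 to 2 were lower without TGFβ iTreg replicate 1, without TGFβ iTreg replicate 2 or without Treg replicate 2. Hk2, the hexokinase that rises in activated T cells, had 221 and 199 CPM in TGFβ iTreg and 82.1 and 81.1 CPM in Treg (log2 difference 1.36, SE 0.08, adjusted p = 5.2e-32). Pfkp, a phosphofructokinase, differed by 0.65, and Pfkfb3, which makes its activator, by -0.45. Of 19 genes of cholesterol synthesis, 11 were higher and 2 lower, with a median of 0.34. Leaving out TGFβ iTreg replicate 2 gave 7 higher and 1 lower, leaving out TGFβ iTreg replicate 1 gave 0 lower, and leaving out either Treg library gave 1 lower. Lss, lanosterol synthase, had 77.7 and 78.6 CPM in TGFβ iTreg and 8.75 and 9.13 CPM in Treg (log2 difference 3.12, SE 0.15, adjusted p = 2.3e-39), and Idi1, an isomerase earlier in the pathway, had 7.06 and 12.5 CPM in TGFβ iTreg and 2.42 and 1.85 CPM in Treg (log2 difference 2.23).

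Of 29 chemokine and homing receptors, 13 were higher and 5 lower, beside 20.7% and 15.0% over all genes, with 2 lower without TGFβ iTreg replicate 1 and 3 lower without TGFβ iTreg replicate 2 or without Treg replicate 1. Ccr2, the receptor for monocyte chemokines that effector Treg also carry, had 51.99 and 56.7 CPM in TGFβ iTreg and 18.8 and 18.3 CPM in Treg (log2 difference 1.56, SE 0.15, adjusted p = 2.0e-17), and Gpr15, a gut homing receptor, had 124.5 and 179 CPM in TGFβ iTreg and 46.4 and 48.7 CPM in Treg (log2 difference 1.69). Of 20 genes of tissue and effector Treg, 10 were higher and 6 lower (3 lower at equal depth). Of 15 TNF receptor genes, 4 were higher and 4 lower, with 2 lower without either TGFβ iTreg library or without Treg replicate 2, and 1 lower at equal depth. Tnfrsf13b (TACI), a receptor best known in B cells, had 164 and 175 CPM in TGFβ iTreg and 64.1 and 60.8 CPM in Treg (log2 difference 1.45, SE 0.09, adjusted p = 6.9e-31). Batf3 led the BATF and AP-1 genes at 1.59, and of those 19 genes 7 were higher and 4 lower (2 lower without TGFβ iTreg replicate 1 or without Treg replicate 2). Of 12 checkpoint receptors, 3 were higher and 4 lower (2 lower without TGFβ iTreg replicate 1). Of 13 Tfh genes, 2 were higher and 5 lower (1 higher without TGFβ iTreg replicate 2, and 3 lower without TGFβ iTreg replicate 1). Retinoic acid genes, of interest because RA was added only to the other kind of iTreg, had 3 higher and 5 lower of 21, and 3 lower without TGFβ iTreg replicate 1. Rxra, the partner of the retinoic acid receptors, had 137 and 176 CPM in TGFβ iTreg and 95.1 and 102 CPM in Treg (log2 difference 0.69). The 6 loci listed as demethylated in Treg, which are those described one by one above, had 3 sums higher and 2 lower.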
